A study of Mus musculus with 12 samples.

Results

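Coq10b, Slc46a3, Gpr155, Tspan4 and Sphkap are 5 genes outside the circadian clock that were picked for the clear separation of Pou2f3 knockout from wild-type submandibular glands (SMGs) in these libraries. They are 5 of the 56065 genes in the count table, and all 5 were among the 17893 genes that passed the filter on low counts. Since the genotype difference chose them, that difference is described below in each sex without a test. The tested comparison is male against female averaged over both genotypes, on which the choice was not based. It is not wholly independent of the choice, since a separation of the genotypes with the sexes pooled limits how far the sexes can differ. Bulk RNA-sequencing was performed on SMGs of mice aged 8 weeks, in 4 groups of 3 mice: wild-type C57BL/6J and C57BL/6J-Pou2f3 knockout, each as a female and a male group. The knockout is constitutive and so not restricted to the gland, and Pou2f3 encodes the transcription factor that defines tuft cells, which are rare chemosensory cells of the ducts. Each library is a whole gland, so fewer cells of a type and less RNA per cell cannot be told apart.

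The genes belong to different parts of the cell. COQ10B is a mitochondrial protein that binds coenzyme Q, the lipid electron carrier of the respiratory chain. SLC46A3 and GPR155 are multispanning proteins of the lysosomal membrane: the former belongs to the family of the proton-coupled folate transporter SLC46A1, and the latter, also called LYCHOS, binds cholesterol and links it to mTORC1, the growth-promoting kinase complex that is switched on at the lysosome. TSPAN4 is a tetraspanin, a membrane-organising protein found in migrasomes, the vesicles that moving cells leave on their retraction fibres. SPHKAP is an anchoring protein that holds protein kinase A (PKA) through its type I regulatory subunits, and it was found as a partner of sphingosine kinase 1.

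Library totals ran from 47031917 to 67881902 estimated counts. Pou2f3 itself had 0 to 10 counts per library in wild type and 0 to 3 in knockout, which is too few to check the genotype labels, and of 8 tuft cell markers Gnat3 and Il25 were at 0 in all 12 libraries and 3 passed the filter (Dclk1, Avil and Plcb2). The 8 summed to 16.5 to 20.7 CPM (counts scaled to library size) in wild-type and 20.8 to 23.5 CPM in knockout females, and to 8.82 to 10.2 CPM in wild-type males, within the range of the knockout males. Avil, named after its values were seen, rose in knockout females from 9.87 ± 7.73 to 42.5 ± 19.8 normalized counts, which are counts scaled to a common library size (SD, n = 3; edgeR adjusted p = 0.014). Beside it, 17.6% of all genes were called higher in knockout females. Dclk1 (log2 difference 0.194, edgeR adjusted p = 0.22) and Plcb2 (0.175, adjusted p = 0.75) were not called there. Nor was Avil in males (−0.174, adjusted p = 0.94). The duct and acinar markers that define the gland were abundant, with the 11 duct and granular convoluted tubule genes summing to at least 4550 CPM and the 9 acinar genes to at least 3800 CPM in every library. The library scaling factors moved with the groups, at 0.625 to 0.759 in wild-type females, 0.902 to 1.03 in knockout females, 1.04 to 1.45 for wild-type males and 1.11 to 1.25 for knockout males. The results were refitted under other scalings, as given in the closing section on processing. The 6 clock genes taken as a reference (Bmal1, Npas2, Dbp, Per2, Per3 and Nr1d1) also separated the genotypes without overlap in both sexes. Bmal1, the core activator of the clock, rose from 50.1 ± 8.42 (SD, n = 3) to 549.0 ± 91.0 normalized counts in females and from 70.6 ± 5.35 to 516.8 ± 122.8 in males (edgeR adjusted p = 2e-06 and 1.4e-05). Dbp, a clock output factor, fell from 5254 ± 967.5 to 881.1 ± 191.2 in females and from 2583 ± 115.6 to 286.3 ± 54.4 in males (edgeR adjusted p = 7.2e-06 and 6.4e-06). The time of day at which the glands were taken is not given in the sources used here, and the part that these clock differences have in the 5 genes was not tested.

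The stretch before the transcription start was read for 3 short motifs that clock factors are known to bind, on both strands: the E-box CACGTG, the D-box TTATGTAA or TTACGTAA, and TAGGTCA, the core of the ROR element. Over 32851 RefSeq promoters of 300 bases (250 before and 50 after the start; GRCm38.p6 table), 7.15% held the E-box, 1.06% the D-box and 2.61% the ROR core. Among the 5 genes, the letters were found at Coq10b and Tspan4, which are shown here because they hold a match, and not in the windows of Slc46a3, Gpr155 and Sphkap. Coq10b held an E-box from base −78 to −73 relative to its start and a D-box from −162 to −155, read here as TTACATAA from the other strand. Tspan4 has 2 annotated starts in the table, and the window of the second, which lies inside the gene, held an E-box from −51 to −46 relative to that start. The Coq10b sequence covers chr1:55091679-55091928 on the plus strand and the Tspan4 stretch chr7:141056230-141056259 on the plus strand, both placed by an exact match to GRCm39, with the motif matches in capitals. A match of letters is a description and not evidence that a factor binds there.
Coq10b: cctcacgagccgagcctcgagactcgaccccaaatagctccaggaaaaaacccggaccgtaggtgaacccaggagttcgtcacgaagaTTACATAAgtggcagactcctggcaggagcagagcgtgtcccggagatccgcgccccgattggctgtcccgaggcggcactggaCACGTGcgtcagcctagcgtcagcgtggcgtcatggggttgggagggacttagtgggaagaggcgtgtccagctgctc
Tspan4: cccccatggagcCACGTGcagagccacgag

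**Figure D1:**
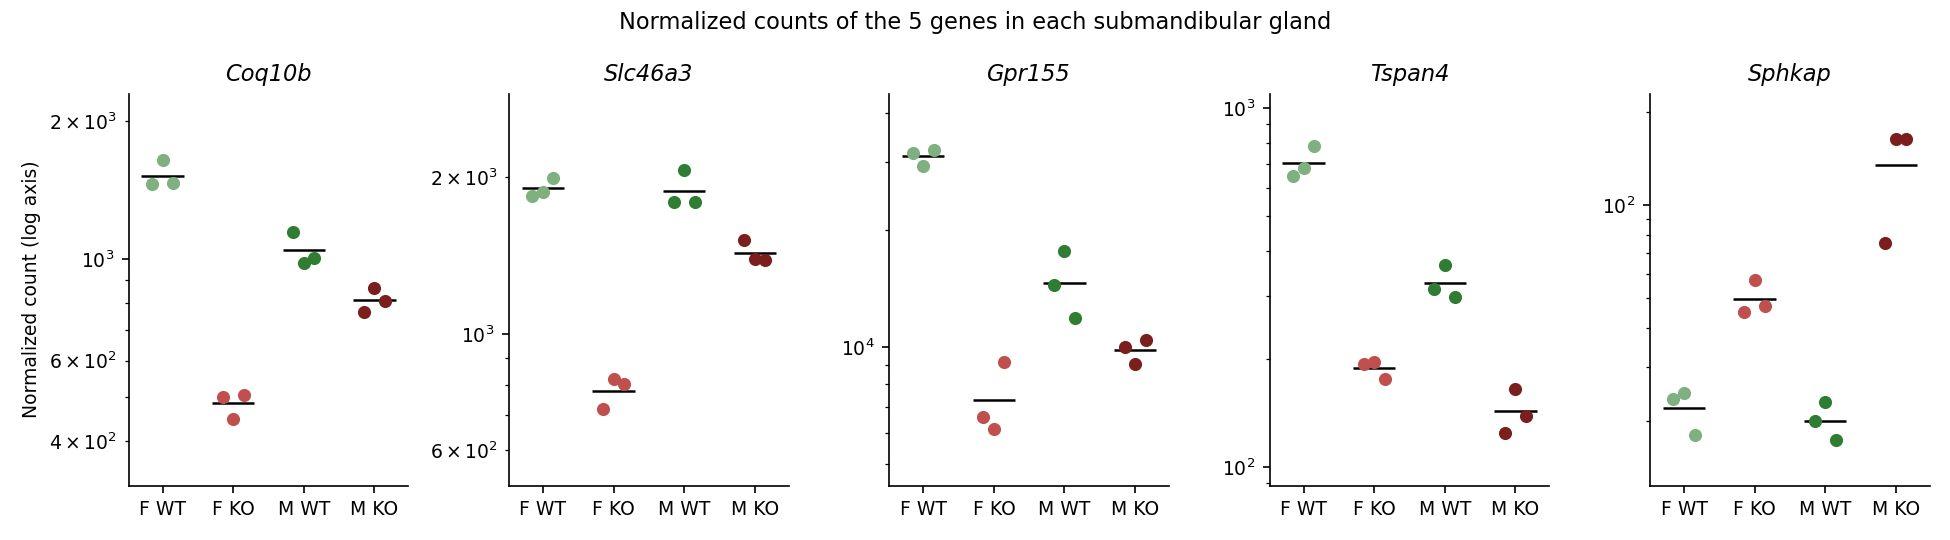
Each panel shows 1 gene, with the normalized count of every library on a log axis, the groups female wild type (F WT), female knockout (F KO), male wild type (M WT) and male knockout (M KO) along the x axis, and a line at each group's mean. Coq10b, Slc46a3, Gpr155 and Tspan4 sit lower and Sphkap sits higher in every knockout library than in any wild-type library of the same sex.

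Coq10b (ENSMUSG00000025981.14) lies on chromosome 1 at 55091923 to 55115640 (GRCm39, plus strand). In females it had 1456, 1644 and 1468 normalized counts in the wild-type libraries and 500.0, 447.3 and 505.6 in the knockout libraries. In males it had 1148, 981.3 and 1003 in wild type and 767.5, 862.3 and 809.8 in knockout. The lowest wild-type library was 2.88 times the highest knockout library in females and 1.14 times in males, so the groups did not overlap in either sex but came close in males. The fitted difference was −1.65 ± 0.10 (log2, SE) in females, 3.15-fold lower, and −0.36 ± 0.10 in males, 1.28-fold lower. Wild-type males were below wild-type females, and knockout males were above knockout females. Coq10a, its paralogue, had 330.8 ± 39.3 (SD, n = 3) normalized counts in wild-type and 333.7 ± 46.4 in knockout females, 328.8 ± 31.6 in wild-type and 328.9 ± 12.9 in knockout males, and its groups overlapped in both sexes.

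Slc46a3 (ENSMUSG00000029650.11) lies on chromosome 5 at 147814297 to 147831666 (minus strand). Wild-type females had 1840, 1871 and 1992 normalized counts and knockout females 718.2, 820.8 and 801.8. Wild-type males had 1793, 2064 and 1791 and knockout males 1516, 1392 and 1388. Wild-type glands of the sexes stood at the same height, and the 3 knockout females stood apart from the other 9 libraries, with the knockout males between. The fitted difference was −1.28 ± 0.09 (log2, SE) in females, 2.44-fold lower, and −0.39 ± 0.09 in males, 1.31-fold lower. Slc46a1, the folate transporter of the same family, was also lower in knockout females, at 420.7 ± 17.9 (SD, n = 3) against 743.4 ± 161.2 normalized counts (edgeR adjusted p = 0.0021). In males it stood at 266.3 ± 37.7 against 325.5 ± 36.4 (edgeR adjusted p = 0.54), and the difference between the sexes in this step was not called either (interaction adjusted p = 0.10). Slc46a2, the remaining family member, did not pass the filter on low counts.

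Gpr155 (ENSMUSG00000041762.17) lies on chromosome 2 at 73171850 to 73217251 (minus strand). Wild-type females had 31562, 29256 and 32103 normalized counts and knockout females 6602, 6144 and 9162. Wild-type males had 14413, 17620 and 11897 and knockout males 10016, 9007 and 10387. Wild-type females were above all other libraries, the third knockout female was the highest of its group, and the male groups were separated by a factor of only 1.15 between their nearest libraries. The fitted difference was −2.08 ± 0.18 (log2, SE) in females, 4.24-fold lower and the largest female fold among the 5 genes, and −0.58 ± 0.17 in males, 1.49-fold lower. Without the third knockout female the female difference was −2.33.

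Tspan4 (ENSMUSG00000025511.16) lies on chromosome 7 at 141055138 to 141073340 (plus strand). Wild-type females had 645.3, 679.5 and 783.6 normalized counts and knockout females 192.8, 196.0 and 176.0. Wild-type males had 312.9, 365.4 and 296.9 and knockout males 124.0, 165.0 and 138.9. The knockout groups of both sexes lay together at the bottom, and wild-type females stood above wild-type males. The fitted difference was −1.90 ± 0.14 (log2, SE) in females, 3.73-fold lower, and −1.19 ± 0.14 in males, 2.28-fold lower, so the male step was the largest among those 4 genes.

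Sphkap (ENSMUSG00000026163.18) lies on chromosome 1 at 83231860 to 83386011 (minus strand) and was the gene that was higher in knockout. Its level was low: the libraries held 12 to 28 counts in wild type, 38 to 59 in knockout females, and 81, 175 and 180 in knockout males. Wild-type females had 23.6, 24.6 and 18.1 normalized counts and knockout females 45.03, 57.2 and 47.1. Wild-type males had 19.99, 23.0 and 17.3 and knockout males 75.5, 164.0 and 163.4. The wild-type groups of the sexes overlapped, and the first knockout male was well below the other two, yet above every knockout female. The fitted difference was 1.16 ± 0.34 (log2, SE) in females, 2.24-fold higher, and 2.73 ± 0.33 in males, 6.65-fold higher. Leaving out each library in turn moved the male difference between 2.57 and 3.02.

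Markers of other cell types also differed in the knockout males. The summed level of the 8 adipocyte markers was 4.63, 77.0 and 45.3 CPM in knockout males 1, 2 and 3, against 1.72 to 2.80 CPM in wild-type males. The summed level of the 7 macrophage markers was 109.0, 202.0 and 190.0 CPM in the knockout males against 79.7 to 96.5 CPM, and that of the 6 fibroblast markers was 362.0, 617.0 and 495.0 CPM against 295.0 to 320.0 CPM. For each of these lists the first knockout male was the lowest of its group, as it was for Sphkap. The 7 lymphocyte markers summed to 10.8, 22.1 and 22.6 CPM in the knockout males against 9.87 to 11.2 CPM, with the first again the lowest. It was also the lowest for the duct, endothelial, tuft, and neuron and ganglion lists. Other lists went another way. The first knockout male was the highest for myoepithelial (399.0, 282.0 and 312.0 CPM), Schwann cell (37.6, 28.8 and 25.4 CPM) and skeletal muscle markers (2.44, 1.59 and 2.15 CPM). For acinar markers (5300, 5600 and 3800 CPM) it lay between the others. In males edgeR called 1 of 6 fibroblast markers higher (Dpt, log2 difference 1.83, adjusted p = 0.017, named after its values were seen), beside 0.101% of all genes called higher. It called no adipocyte, macrophage or lymphocyte marker, of which 8, 7 and 1 were tested. No marker of these lists or of the fibroblast list was at 0 in all libraries. In females the adipocyte sum was 4.26 to 99.2 CPM in wild type and 3.13 to 7.82 CPM in knockout, and the macrophage sum was 95.1 to 274.0 CPM and 79.6 to 132.0 CPM. In knockout females 3 of 8 adipocyte and 3 of 7 macrophage markers were called lower, beside 19.3% of all genes, while Sphkap was higher there. The 9 neuron and ganglion markers, listed since SPHKAP is best known from brain and heart, summed to 0.179 to 6.59 CPM over all libraries, and their range in knockout males, 1.36 to 2.80 CPM, lay within that of wild-type males, 0.966 to 6.59 CPM. The part of these other cells in the Sphkap values was not tested.

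**Figure D2:**
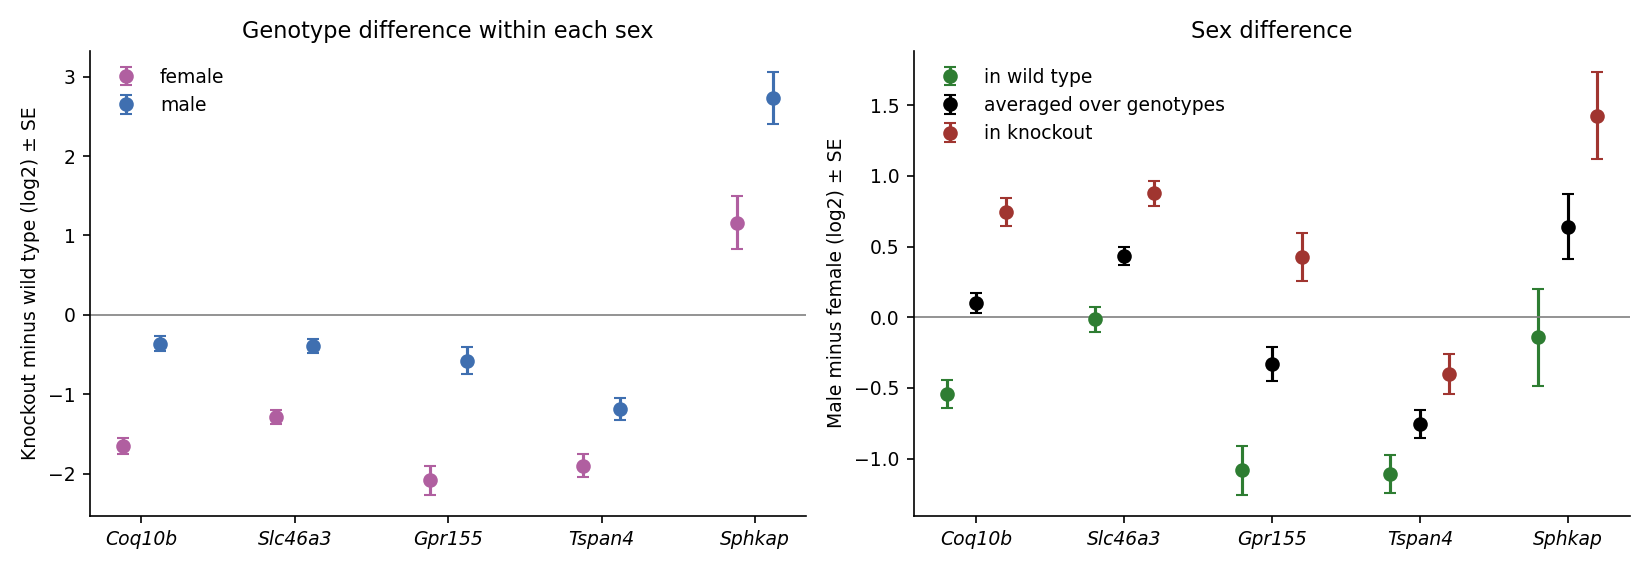
The left panel shows the fitted knockout minus wild-type difference (log2, with its SE) of each gene in females and males, and the right panel the male minus female difference in wild type, in knockout and averaged over both. The genotype difference of Coq10b, Slc46a3, Gpr155 and Tspan4 is farther from 0 in females, that of Sphkap in males, and the averaged sex difference is lowest for Tspan4 at −0.76 and highest for Sphkap at 0.64.

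For each of the 5 genes all 6 knockout libraries lay on 1 side of all 6 wild-type libraries, sexes pooled, which is the property they were chosen by, and nothing is read from it. The shares of non-overlap over all genes given next are within each sex or within both, which is a looser property than the pooled one. Over all 17893 genes tested, knockout females lay below wild type without overlap for 24.1% of genes and above it for 25.2%, and knockout males for 7.95% and 6.51%. In 2.61% of all genes, 467 in number, the genotypes did not overlap in both sexes with the same direction. At an edgeR adjusted p under 0.05, 19.3% of all genes were lower and 17.6% higher in knockout females, and 0.134% were lower and 0.101% higher in knockout males. The male shares stand for 24 and 18 genes, and without the first knockout male the same test called 312 and 323. The median difference over all genes was 0.03 (log2) in females and −0.04 in males. The female difference minus the male one was called for 25.7% of all genes (edgeR interaction, adjusted p under 0.05). As a description, for the 5 genes it was −1.29 ± 0.14 (log2, SE) for Coq10b, −0.89 ± 0.13 for Slc46a3, −1.51 ± 0.24 for Gpr155, −0.71 ± 0.20 for Tspan4 and −1.57 ± 0.46 for Sphkap.

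To set the genes roughly side by side, counts were divided by the length of all annotated exons of each gene. That length need not be the length of the transcripts expressed here. On this scale Gpr155 was the most abundant of the 5 in every group. It ran from 819.2 ± 182.4 (SD, n = 3) normalized counts per kb in knockout females to 3475 ± 169.6 in wild-type females. Slc46a3 came next, at 200.9 ± 14.1 in knockout females to 489.5 ± 20.7 in wild-type females. Coq10b and Tspan4 followed, and their order changed with the group. This order rests on the lengths used, 9582 bases for Coq10b and 3134 for Tspan4. Before that division Coq10b had more normalized counts than Tspan4 in every group. Per kb, Tspan4 was higher in wild-type females, at 224.3 ± 23.0 against 158.9 ± 11.02 for Coq10b. It was slightly higher in knockout females, at 60.1 ± 3.43 against 50.5 ± 3.36. In wild-type males they lay within their spread of each other, at 103.7 ± 11.4 for Tspan4 and 109.0 ± 9.49 for Coq10b, and in knockout males Coq10b was higher, at 84.9 ± 4.95 against 45.5 ± 6.61. Sphkap was lowest throughout, from 2.07 ± 0.29 (wild-type males) to 13.9 ± 5.25 (knockout males).

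Male and female glands were then compared over both genotypes, the comparison on which the choice of genes was not based. The pooled separation of the genotypes still limits how far the sexes can differ within a genotype. Over all 17893 genes, 43.7% were called in this comparison at an edgeR adjusted p under 0.05, so a call is common. Tspan4 was lower in males by 0.76 ± 0.10 on the log2 scale, 1.69-fold (edgeR adjusted p = 3.4e-05). This held in both genotypes, at −1.11 ± 0.14 (log2, SE) between the wild-type groups and −0.40 ± 0.14 between the knockout groups. Slc46a3 was higher in males, with a log2 difference of 0.43 ± 0.06 (SE), 1.35-fold (edgeR adjusted p = 0.0001). Its sex difference was −0.01 ± 0.09 between the wild-type groups and 0.88 ± 0.09 between the knockout groups, so the average came from the knockout glands.

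Of the other 3 genes, Gpr155 and Sphkap had calls that were less firm, and Coq10b had none. Gpr155 was lower in males by the average, with a log2 difference of −0.33 ± 0.12 (SE; edgeR adjusted p = 0.043), but the difference was −1.08 ± 0.17 in wild type and 0.42 ± 0.17 in knockout, in opposite directions. The call was lost when a block for the replicate number was fitted (adjusted p = 0.067), with the authors' own scaling factors (adjusted p = 0.13), and when any 1 of 9 libraries was left out. It held without knockout female 1, knockout female 2 or wild-type male 2, and the adjusted p lay between 0.015 and 0.13 over the 12 libraries left out. Sphkap was higher in males, with a log2 difference of 0.64 ± 0.23 (SE; edgeR adjusted p = 0.038), made of −0.14 ± 0.34 in wild type and 1.43 ± 0.31 in knockout. That call was lost with the Wald test of DESeq2 (adjusted p = 0.053) and when any 1 of 8 libraries was left out. It held without wild-type female 2, knockout female 2, wild-type male 3 or knockout male 1, and the adjusted p lay between 0.0046 and 0.097 over the 12 libraries left out. Coq10b did not pass the test, with a log2 difference of 0.10 ± 0.07 (SE; edgeR adjusted p = 0.26), since −0.54 ± 0.10 in wild type and 0.75 ± 0.10 in knockout nearly cancelled.

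The genes that share a pathway or family with the 5 were taken as 5 lists, on which 135 genes passed the filter and the 5 genes themselves were left out. In knockout females 49 of the 135 (36.3%) were lower and 18 (13.3%) higher (edgeR adjusted p under 0.05), beside 19.3% and 17.6% of all genes, with a median log2 difference of −0.17 beside 0.03 over all genes. The 18 became 10 without knockout female 1 and 11 without wild-type female 2, wild-type female 3 or knockout female 3. The 3158 genes behind the 17.6% became 1940 without wild-type female 3, 2013 without knockout female 1 and 2091 without knockout female 3. In knockout males 0 of the 135 were called, beside 0.134% of all genes lower and 0.101% higher, with 12 at an unadjusted p under 0.05 and a median of −0.08 beside −0.04 over all genes. DESeq2 called 1 in males, the tetraspanin Tspan15 at −0.61 (log2, adjusted p = 0.018), which is named after its values were seen, beside 176 of all genes lower. Without the first knockout male edgeR called 4 list genes lower in males, Tspan15, Ctns, Rragd and Slc17a5, likewise named after the fact. Beside these 4, 312 of all genes were called lower in that fit. Markers of cell types differed in the same female libraries: edgeR called 3 of 9 acinar, 3 of 6 myoepithelial, 3 of 8 adipocyte and 3 of 7 macrophage markers lower and none of them higher, and 3 of 11 duct and granular convoluted tubule markers lower and 2 higher. The summed duct level was 4550 to 8480 CPM in wild type and 4920 to 9180 CPM in knockout, the summed acinar level 10300 to 19100 CPM and 7050 to 13000 CPM. The adipocyte sum was 4.26, 12.4 and 99.2 CPM in wild-type females 1, 2 and 3, and 3.13 to 7.82 CPM in knockout. The macrophage sum was 274.0, 95.1 and 136.0 CPM and 79.6 to 132.0 CPM. For both lists the genotypes overlapped, and 1 wild-type library stood well above the rest. The summed myoepithelial level was 141.0 to 188.0 CPM in wild type and 115.0 to 128.0 CPM in knockout, and no marker of these 5 lists was at 0 in all libraries. Of 6 endothelial markers 1 was called lower, and their sum was 31.2 to 34.9 CPM in wild type and 25.3 to 29.9 CPM in knockout. In addition, 1 of 2 skeletal muscle markers was called lower, and 1 of 4 Schwann cell and 1 of 3 tuft markers higher. The part of all these markers in the list counts was not tested.

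Of 15 genes of coenzyme Q synthesis, 2 were lower and 2 higher in knockout females, 13.3% each, beside 19.3% and 17.6% of all genes. The 2 lower became 0 under upper-quartile scaling, 1 without the low-count filter and 1 without wild-type female 3, and the 2 higher became 1 without wild-type female 2, wild-type female 3, knockout female 1 or knockout female 3. The lower ones were Coq5, the C-methyltransferase of the pathway, at −0.39 ± 0.12 (log2, SE; edgeR adjusted p = 0.019), and Coq2, which joins the ring to its isoprenoid tail, at −0.38 ± 0.12 (adjusted p = 0.022). The higher ones were Fdxr, ferredoxin reductase of the mitochondrion, which went from 146.8 ± 4.32 (SD, n = 3) to 300.7 ± 39.7 normalized counts (adjusted p = 0.00043), and Pdss2, a subunit of the enzyme that makes the tail, at 0.53 ± 0.17 (log2, SE; adjusted p = 0.025). The call of Pdss2 was lost without those same 4 libraries (adjusted p up to 0.14) and with the authors' factors (0.29, adjusted p = 0.23).

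Of 30 lysosomal membrane genes, 14 (46.7%) were lower and 5 (16.7%) higher in knockout females, beside 19.3% and 17.6% of all genes, with a median log2 difference of −0.34. The 5 became 3 without wild-type female 2 and 2 without wild-type female 1, wild-type female 3, knockout female 1 or knockout female 3. Ostm1, the beta subunit of a lysosomal chloride exchanger, fell from 1924 ± 144.0 (SD, n = 3) to 1216 ± 24.6 normalized counts (edgeR adjusted p = 0.0004). Slc29a3, a lysosomal nucleoside transporter, fell from 1583 ± 78.0 to 1043 ± 55.1 (adjusted p = 0.00095). Against this direction, Abcd4, which works in lysosomal cobalamin export, rose from 94.8 ± 11.4 to 206.8 ± 10.7 (adjusted p = 0.0012), and Mcoln1, the lysosomal calcium channel, rose from 610.3 ± 25.5 to 882.3 ± 116.3 (adjusted p = 0.0056), a log2 difference of 0.53 that became 1.14 with the authors' factors.

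Of 37 genes of lysosomal nutrient sensing by mTORC1, 11 (29.7%) were lower and 5 (13.5%) higher in knockout females, beside 19.3% and 17.6% of all genes, with a median log2 difference of −0.07. The 5 became 3 without wild-type female 2 or knockout female 1, and 8 under upper-quartile scaling. Deptor, a protein that binds and inhibits mTOR, fell from 7893 ± 421.5 (SD, n = 3) to 4566 ± 307.7 normalized counts (edgeR adjusted p = 0.00035), and Sec13, a GATOR2 subunit that also serves in COPII coats and nuclear pores, fell from 2801 ± 243.2 to 1666 ± 138.3 (adjusted p = 0.00061). Tsc1, part of the complex that restrains mTORC1, rose from 756.2 ± 45.04 to 1122 ± 136.7 (adjusted p = 0.0045), a log2 difference of 0.57 that became 0.89 with the authors' factors. In males Deptor stood at 4019 ± 405.1 in knockout and 5046 ± 391.6 in wild type, without overlap and without a call (adjusted p = 0.24).

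Of 26 tetraspanins, 13 were lower and 1 (3.85%) higher in knockout females, beside 19.3% and 17.6% of all genes, with a median log2 difference of −0.50, the lowest of the 5 lists. Tspan13 fell from 8156 ± 1196 (SD, n = 3) to 3616 ± 175.0 normalized counts (edgeR adjusted p = 0.0002) and Tspan31 from 1639 ± 157.7 to 1027 ± 60.04 (adjusted p = 0.00059). The gene that rose was Tspan18, from 84.9 ± 12.1 to 158.7 ± 27.96 (adjusted p = 0.036), a call that was lost when any 1 of the 6 female libraries was left out (adjusted p up to 0.13) and with the authors' factors (adjusted p = 0.094).

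Of 27 genes of PKA and its anchoring proteins, a list that also held Sphk1, Sphk2, Vapa and Vapb, 9 (33.3%) were lower and 5 (18.5%) higher in knockout females, beside 19.3% and 17.6% of all genes, with a median log2 difference of −0.08. Vapa and Vapb were among those lower, and Sphk1 and Sphk2 among those higher. Prkar2a, a type II regulatory subunit of PKA, fell from 2028 ± 92.2 (SD, n = 3) to 1155 ± 62.5 normalized counts (edgeR adjusted p = 0.00013), and Vapb, an anchor of the endoplasmic reticulum, fell from 2025 ± 105.6 to 1355 ± 94.6 (adjusted p = 0.00065). Akap8l, a nuclear protein of the anchoring family, rose from 301.5 ± 152.4 to 1409 ± 330.9 (adjusted p = 0.00037). Sphk1, the sphingosine kinase that SPHKAP binds, rose in knockout females from 97.7 ± 33.0 to 302.7 ± 111.2 (adjusted p = 0.0014). In males Sphk1 stood at 97.6 ± 6.10 in knockout and 53.0 ± 2.23 in wild type, without overlap and without a call (adjusted p = 0.26).

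**Figure D3:**
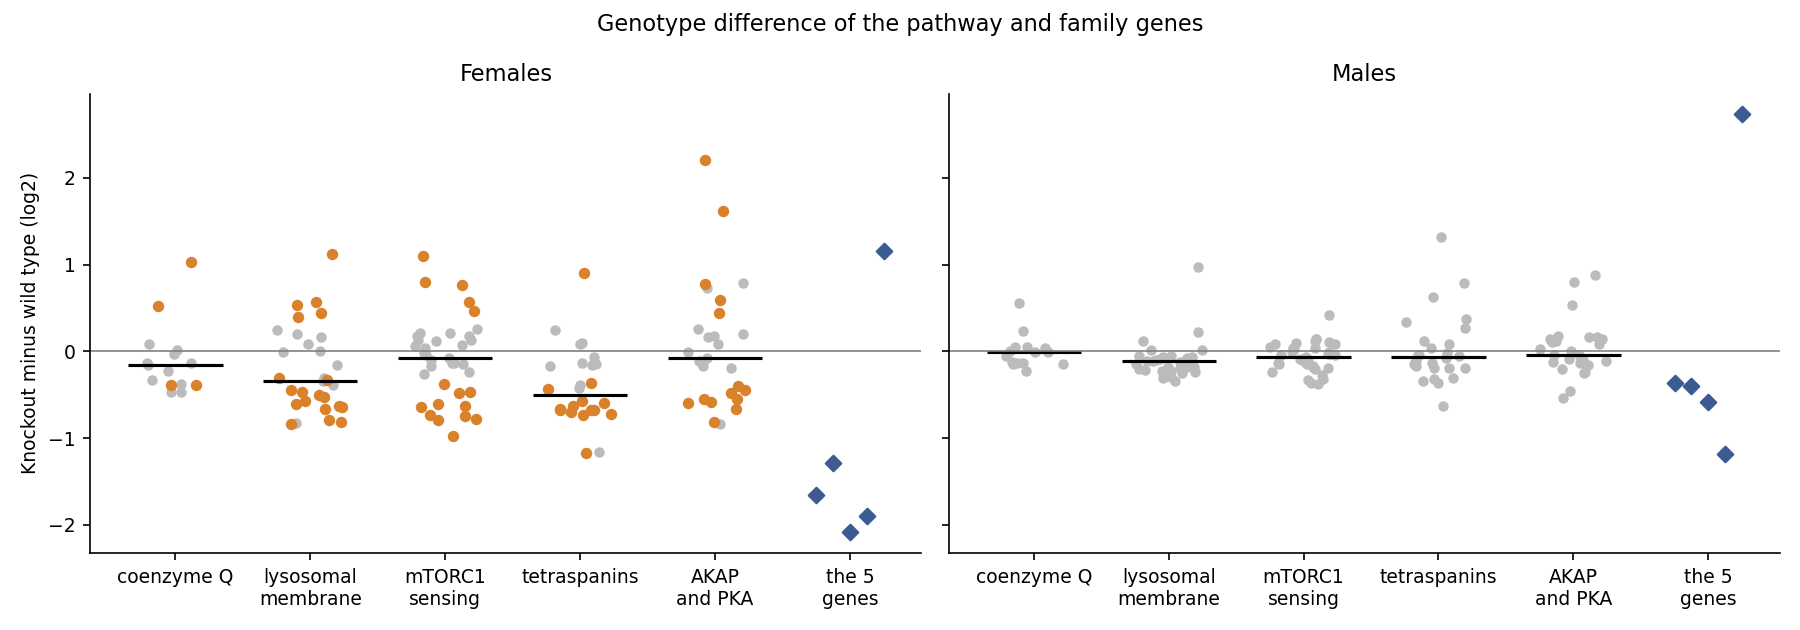
Each point is 1 gene of a list, with its knockout minus wild-type difference (log2) in females (left) and males (right), orange where the edgeR adjusted p is under 0.05, and black lines at list medians, with the 5 genes as blue diamonds at the right of each panel. In females the tetraspanin median is lowest at −0.50, and in males no list gene is called.

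The nearest gene that passed the filter on each side of the 5 genes was read for the same comparison, and edgeR called 5 of these 10 neighbours in females, beside 36.9% of all genes in either direction. The 5 became 2 without wild-type female 3 or knockout female 1. In males edgeR called 0 of the 10, beside 0.134% of all genes lower and 0.101% higher, as did DESeq2, and 0 had an unadjusted p under 0.05. Pomp, the proteasome maturation protein, runs through Slc46a3 on the opposite strand and shares 1728 exon bases with it, and it was lower in knockout females by 0.64 on the log2 scale (edgeR adjusted p = 0.00076). Polr2l, a small RNA polymerase subunit, overlaps the start of Tspan4 on the opposite strand by 746 exon bases, and it fell by 0.96 in females (adjusted p = 0.00091). Chid1 overlaps the end of Tspan4 on the opposite strand by 292 exon bases and stood at −0.28 (adjusted p = 0.13), but was called without wild-type female 1 (−0.41, adjusted p = 0.044) and with the authors' factors (−0.81, adjusted p = 0.004). Gm17971, a processed pseudogene inside Coq10b on the same strand that shares 543 exon bases with it, rose from 6.49 ± 5.18 (SD, n = 3) to 35.3 ± 21.0 normalized counts in females (adjusted p = 0.019). That call was lost without wild-type female 2, wild-type female 3 or knockout female 1 (adjusted p up to 0.093), and the difference ran from 1.81 to 3.22 on the log2 scale as each library was left out. Whether the assignment of reads used the strand is not given in the sources used here, so reads in bases shared by opposite strands cannot be told apart. The bases that Gm17971 shares with Coq10b lie on the same strand, which no strand setting would separate. Genes outside the tested set also share exon bases on the opposite strand. Among them are E330011M16Rik with Coq10b (349 bases), Gm13709 with Gpr155 (170 bases) and Gm70738 with Sphkap (1501 bases). The values of overlapping pairs are uncertain to that extent.

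The other neighbours do not overlap. Scrn3, left of Gpr155, fell by 0.48 on the log2 scale in females (edgeR adjusted p = 0.019; 0.066 without wild-type female 3, 0.058 without knockout female 1 and 0.05 under upper-quartile scaling), and Wipf1, to its right, stood at −0.29 (adjusted p = 0.42). The value of Wipf1 was −0.05 without wild-type female 1, −0.49 without wild-type female 2 and −0.60 without knockout female 2, with no call in any of them. Sf3b1, left of Coq10b, stood at 0.18 (adjusted p = 0.20), with 0.08 without wild-type female 3, 0.11 without knockout female 3 and a call under upper-quartile scaling (0.29, adjusted p = 0.046). Mtus2, right of Slc46a3, stood at 0.90 (adjusted p = 0.078), with 0.57 without wild-type female 1, 0.05 with the authors' factors and a call without wild-type female 2 (1.36, adjusted p = 0.019). Sphkap has no tested gene near it: A030005L19Rik, 340008 bases to the left, rose from 2.75 ± 3.54 to 15.3 ± 2.71 normalized counts in females (adjusted p = 0.038), and Gm37058, 724576 bases to the right, stood at 0.58 (adjusted p = 0.43), with 1.11 without wild-type female 1, 0.18 without wild-type female 3 and 0.34 without knockout female 2. The call of A030005L19Rik rests on few counts and was lost in 10 of 20 alternatives, and its difference of 2.35 on the log2 scale became 4.17 without wild-type female 1.

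**Figure D4:**
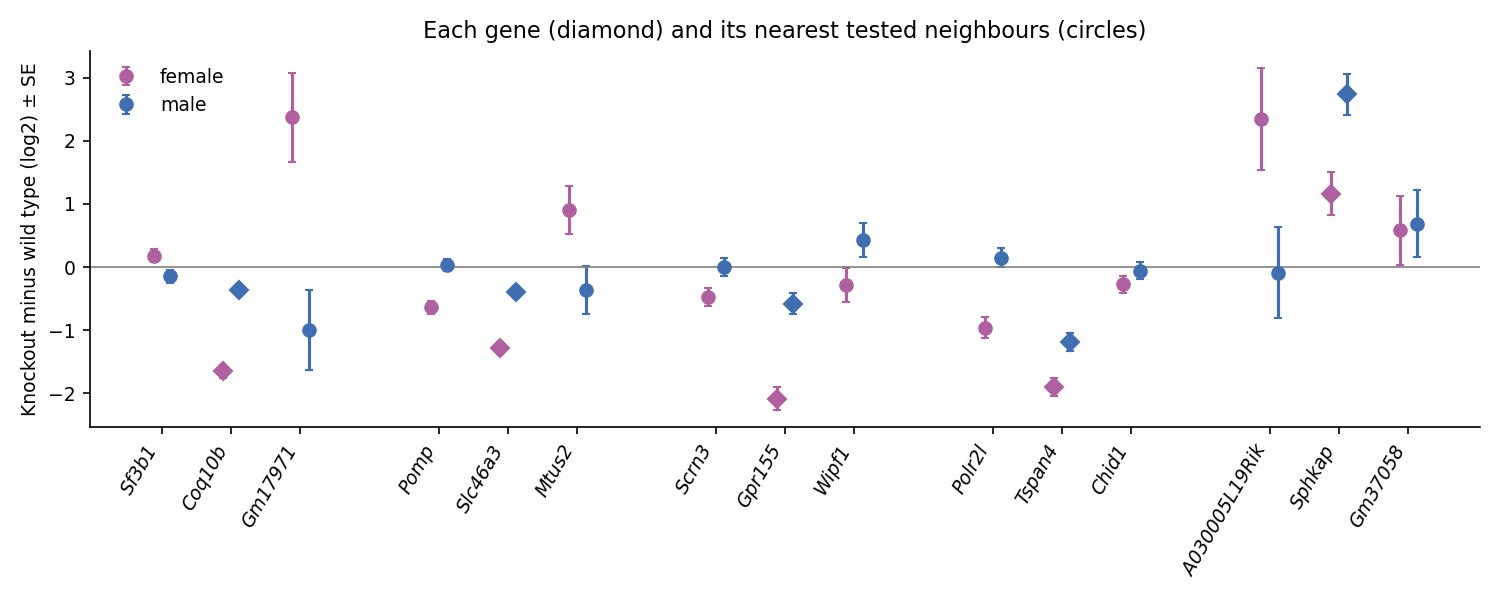
The knockout minus wild-type difference (log2, with its SE) is shown in females and males for each of the 5 genes (diamonds) and for the nearest tested gene on either side in genome order (circles). In females the neighbours run from −0.96 (Polr2l) to 2.37 (Gm17971). The 5 genes were picked for a large difference and their neighbours were not.

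Within groups the 5 genes varied to different extents. The SD of log2 CPM about the group means was 0.09 for Slc46a3, 0.10 for Coq10b, 0.15 for Tspan4, 0.22 for Gpr155 and 0.36 for Sphkap, which is above that of 5.11%, 7.51%, 25.9%, 45.9% and 65.5% of all tested genes. When each library was set against its own group's mean, which removes the genotype difference the genes were picked for, the 10 pairs of the 5 genes had Pearson's r between −0.56 (Coq10b and Slc46a3) and 0.50 (Tspan4 and Sphkap), with a median of 0.03 over the 12 libraries. The r of Tspan4 and Sphkap ranged from 0.07 to 0.79 and that of Coq10b and Slc46a3 from −0.70 to −0.30 as each library was left out. Against 6 clock genes (Bmal1, Npas2, Dbp, Per2, Per3 and Nr1d1), the 30 values ran from −0.85 (Tspan4 and Per3) to 0.60 (Sphkap and Per2), with a median of −0.11, and 6 were beyond 0.5 in size. Tspan4 and Per3 kept −0.91 to −0.77, Gpr155 and Npas2, at −0.78, kept −0.91 to −0.60, and Sphkap and Dbp, at −0.73, kept −0.79 to −0.64 when each library was left out, while Sphkap and Per2 ran from −0.08 to 0.79. These values share libraries, depth and scaling, and with 3 mice in each group they are a description.

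**Figure D5:**
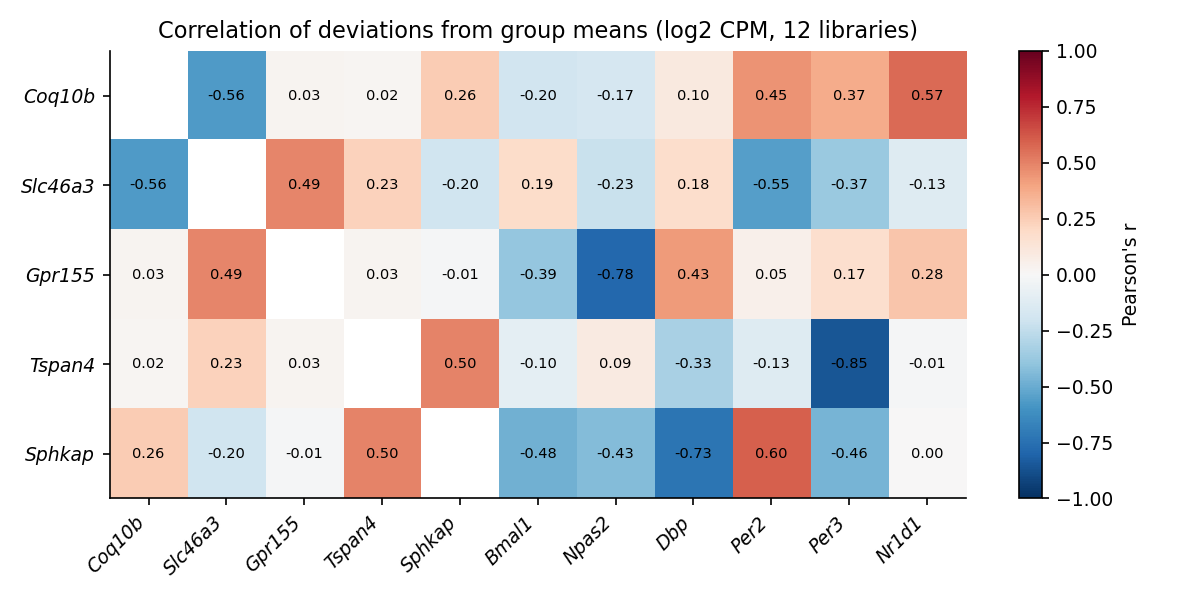
Pearson's r of the deviations from group means (log2 CPM, 12 libraries) is given in each cell, for the 5 genes (rows) against each other and against 6 clock genes (columns), from blue at −1 to red at 1. Most cells among the 5 genes are pale, and the darkest cell is Tspan4 with Per3 at −0.85.

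The genes whose log2 CPM over the 12 libraries was most like that of each gene were found by Pearson's r, which here mostly reads the 4 group means. For Coq10b they were Gars1 (0.959), Ak4 (0.956) and Trp53inp2 (0.955), and for Slc46a3 they were Ssu72 (0.985), Ddx19b (0.978) and Tor1aip2 (0.975). For Gpr155 they were Ogfod1 (0.976), Hdlbp (0.976) and Txndc5 (0.975). For Tspan4 they were Nr1d2 (0.962), Smarcd2 (0.958) and Ccnd1 (0.957), and for Sphkap Grap (0.953), Rnf144a (0.943) and Sh3pxd2b (0.913). Within groups the likeness stayed for some and not for others: r of the deviations was 0.85 for Sphkap and Grap, 0.91 for Sphkap and Rnf144a, 0.85 for Gpr155 and Hdlbp and 0.81 for Slc46a3 and Ssu72, but −0.37 for Coq10b and Gars1 and −0.27 for Tspan4 and Nr1d2. By Spearman's rho, 2 of the 3 names of Sphkap, 1 each of Gpr155 and Tspan4, and 0 of Coq10b and Slc46a3 came out the same.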

How the data were processed

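Estimated counts per gene were used for 12 SMG libraries. The authors made them with Salmon 1.10.1 against Gencode M35 (GRCm39) from stranded libraries of total RNA depleted of ribosomal RNA, and 78.7% of the deposited estimated counts were whole numbers. The deposited signal in a second table, the counts after division by factors specific to gene and library, served as an alternative only. The labels call the molecule polyadenylated RNA.

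Counts were rounded and fitted with edgeR 4.0.16 (R 4.3.3, limma 3.58.1; TMM scaling, filterByExpr by group, quasi-likelihood, 1 mean per group, all 12 libraries), with Benjamini-Hochberg adjustment over the 17893 genes tested. The SE is the absolute log2 difference divided by the square root of F. To give normalized counts, TMM-adjusted CPM were multiplied by the mean of the effective library sizes. A prior count of 2 was used for log2 CPM. Totals were 47031917 to 67881902 counts, and where 0 was counted, 3 counts (0.0442 to 0.0638 CPM by library) are the upper limit, for counting error only. Positions come from Gencode M39, which held 55563 of 56065 identifiers, and 2 listed symbols (Bmt2 and Akap2) were not matched.

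The 5 genes and the lists were chosen with earlier results of these data known. Genes named beside them were, by rule, the 2 called genes per list and direction with the smallest adjusted p, the paralogues, the nearest tested neighbours, the 3 genes of highest Pearson's r and the 6 clock genes. A gene that this rule names is not reported here. Alternatives were RLE and upper-quartile scaling, leaving out the 20 most abundant genes, the authors' factors, no filter, at least 10 counts in every library, DESeq2 1.42.0, each sex alone, a replicate block, Spearman's rho and each library left out in turn (for the correlations, added after seeing the data). The replicates are separate mice by their labels. The fits were tested on simulated data. Figures were drawn with matplotlib 3.10.9 under Python 3.11.15, after summaries in numpy 2.4.6 and pandas 2.3.3.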

Additional observations from a re-analysis of the deposited data

Results flagged for a closer look

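The genotype difference was set against sex for 30 genes named above, the 10 neighbours and 20 list genes named by rule, by the interaction term of the edgeR fit with adjustment over all genes tested. In 16 of them the female difference minus the male one passed an adjusted p of 0.05, beside 25.7% of all genes. It was below 0 for Tspan31 (−0.63, adjusted p = 0.01), Slc29a3 (−0.48, adjusted p = 0.03), Tspan13 (−0.86, adjusted p = 0.0095), Deptor (−0.46, adjusted p = 0.042), Pomp (−0.67, adjusted p = 0.0083), Sec13 (−0.78, adjusted p = 0.0072), Prkar2a (−0.93, adjusted p = 0.0027), Ostm1 (−0.55, adjusted p = 0.012), Polr2l (−1.11, adjusted p = 0.0064) and Vapb (−0.58, adjusted p = 0.0087). All of these were lower in knockout females, with male differences between −0.33 and 0.15 on the log2 scale, none of which was called. It was above 0 for Akap8l (2.75, adjusted p = 0.0032), Mcoln1 (0.73, adjusted p = 0.012), Fdxr (0.98, adjusted p = 0.0072), Abcd4 (1.30, adjusted p = 0.0077), Tsc1 (0.71, adjusted p = 0.015) and Gm17971 (3.37, adjusted p = 0.023). All of these were higher in knockout females, with uncalled male differences between −0.999 and 0.05. Gm17971 shares exon bases with Coq10b, and Pomp and Polr2l share exon bases with Slc46a3 and Tspan4, as given above. Apart from Coq10a and Slc46a1, which were named as paralogues, the list genes were those with the smallest adjusted p in females, so a female difference was part of how they were chosen.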

How the results depend on the processing

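The sex differences of Slc46a3 and Tspan4 kept their direction and their call in all 20 alternatives, with log2 differences of 0.31 to 0.47 and −0.88 to −0.69. That of Coq10b turned to −0.018 under upper-quartile scaling, which moved the median of all genes by −0.12 in this comparison and by 0.10 in the female genotype difference. The call of Gpr155 was lost with the authors' factors (−0.239) and with the replicate block (−0.322), and its value was −0.404 to −0.214 without 1 library. The call of Sphkap was lost with upper-quartile scaling (0.523), without the low-count filter (0.653) and by DESeq2 (0.626), and its value was 0.561 to 0.787 without 1 library. The cause was not tested. The replicate numbers do not pair the mice by any label, and same-numbered libraries deviated together with r between −0.135 and 0.09. No other call on the 5 genes changed with the block.

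Female genotype differences of the 5 genes moved by more than the spread of libraries under upper-quartile scaling (Coq10b −1.549, Slc46a3 −1.179) and with the authors' factors (Coq10b −1.837, Slc46a3 −1.411, Tspan4 −2.035, Sphkap 1.542), as did the male difference of Slc46a3 (−0.281). Without 1 library, the female difference was −1.37 to −1.275 for Slc46a3, −2.33 to −2.02 for Gpr155 and −2.019 to −1.848 for Tspan4. No difference changed sign, and the genotypes of the 5 genes stayed without overlap under the 4 other scalings.

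The counts of calls depended more on the setting. Without the filter 167 genes were lower and 222 higher in knockout males, and by DESeq2 176 and 216, against 24 and 18, while 15 were lower with each sex fitted alone. Without 1 library these were 9 to 312 lower and 4 to 323 higher, the highest without the first knockout male. List genes lower in males were 1 without the filter, 1 by DESeq2 and 0 to 4 without 1 library. In females 10 to 18 list genes and 1940 to 3195 of all genes were higher without 1 library, the fewest list genes without knockout female 1 and the fewest of all genes without wild-type female 3. Neighbours called in females were 3 with at least 10 counts in every library and 2 to 6 without 1 library, with 2 without wild-type female 3 or knockout female 1. Of 669 alternative values of the list genes named by rule and the neighbours, Coq10a left aside, 632 kept direction and side of the threshold, 33 lost the call, 4 gained it and 0 turned. The difference of Coq10a lay at 0.01 in females and ran from −0.15 to 0.12 over the alternatives, changing sign. Among the 5 genes depth limits the fold of Sphkap most, at 12 to 28 counts in wild type.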
